A study of Mus musculus with 4 samples.

Results

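Cytosolic ribosomal protein genes are the genes whose products build the small and the large subunit of the ribosome in the cytoplasm. They were taken from mouse oligonucleotide arrays by gene name: Rpl, Rps or Rplp followed by a digit, Rpsa and Fau, without the Rps6 kinases. The rule found 84 gene names of the 27745 on the array, read by 139 of 41174 probes, and all 84 were among the 18313 names bright enough to be tested. The lymphoma group held 2 B-cell lymphoma cell lines, lymphoma line 1 and lymphoma line 2, derived independently from mice that carried a transgene for the dopamine receptor 3. The control group held 2 samples of splenocytes positive for B220, a surface protein of B cells, from C57BL/6N mice, here splenocytes 1 and splenocytes 2. All 4 samples are labelled female and C57BL/6N, so the strain was shared and the transgene and the culture as a line were not. The promoter of the transgene, the ages of the mice and whether the splenocytes of several mice were pooled are not given in the sources used here. Each line was read on 1 array, so a line cannot be told apart from its array. A p-value here reflects the spread among 4 samples, and the labels do not state whether the 2 splenocyte samples are independent.

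The names fall into 5 roles. There were 32 proteins of the small subunit, 43 of the core of the large subunit and 3 of its stalk, and these 78 are called structural below. The other names were 4 paralogs, which are second gene copies of a structural protein (Rpl3l, Rpl22l1, Rpl36al and Rps27l), and 2 that match the naming rule without being ribosomal proteins by their usual description. Those 2 are Rpl7l1, known for a part in making the large subunit, and Rps19bp1, which encodes a nucleolar protein that binds Rps19. The paralogs Rpl10l and Rpl39l were not analysed here.

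A ribosome needs its structural proteins in matched amounts, and free ribosomal proteins that find no place in a subunit are broken down. The mRNAs of these proteins are among the most abundant in a growing cell. Many of them begin with a C followed by an unbroken run of pyrimidines, the 5′ terminal oligopyrimidine (TOP) tract, through which the mTOR pathway and Larp1 control their translation and stability. In B cells, activation and growth are accompanied by more ribosome production, and Myc is a known activator of the genes for ribosome assembly.

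The start of the transcript shows which members carry such a tract at an annotated start. The windows below come from RefSeq on the GRCm38.p6 build, run 5′ to 3′ on the gene's strand, and hold 15 bases before the start and 20 from the start on. Capitals mark at least 5 unbroken pyrimidines (C or T), counted from a C within 2 bases of the start. The base before that C was not checked, so the full run can begin farther upstream, as it does for Rpl14 and Rpl27a. The windows are shown for members described below that were low, close to equal or high in the lymphoma lines.
Rps6 (chr4:86857348-86857382, minus strand): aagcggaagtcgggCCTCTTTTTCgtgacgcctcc
Rps18 (chr17:33955646-33955680, minus strand): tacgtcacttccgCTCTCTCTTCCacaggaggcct
Rpl13a (chr7:45128726-45128760, minus strand): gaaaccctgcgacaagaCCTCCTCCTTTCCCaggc
Rps27 (chr3:90213629-90213663, minus strand): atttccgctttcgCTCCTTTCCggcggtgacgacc
Rpl27a (chr7:109519180-109519214, plus strand): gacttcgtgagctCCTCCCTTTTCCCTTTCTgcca
Rpl14 (chr9:120571502-120571536, plus strand): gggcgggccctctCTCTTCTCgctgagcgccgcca
Rps27l (chr9:66946071-66946105, plus strand): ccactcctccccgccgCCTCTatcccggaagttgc
Rpl11 (chr4:136053374-136053408, minus strand): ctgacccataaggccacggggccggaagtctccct
Rpl3l (chr17:24727811-24727845, plus strand): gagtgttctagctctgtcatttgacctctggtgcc

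The last pair, Rpl11 and Rpl3l, has no run by this rule, which speaks of these letters at this annotated start and not of the transcript made. A start was listed for 64 of the 84 names, under 80%, so a comparison of tract and response over the members is void. Only the most upstream listed start of each gene was searched, so a tract at another start of the gene was not counted. Among the 64, 21 held a tract at that start, and 8.97% of the 27025 starts taken this way from the reference table held one.

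All 4 arrays were on 1 slide and were scanned once, so no slide or scan differed between the groups. The 75th percentile of the processed signal, to which every value below is scaled, was 1122 and 1315 for lines 1 and 2, against 1078 and 514 for splenocytes 1 and 2. No spot was saturated. The brightest spots were read from a scan at low gain, 1917 and 2003 spots in the lines, against 1494 and 750 in the splenocytes. All 8 B-cell markers listed for this check were well above background on all 4 arrays. Their summed signal was 439 and 429 times the 75th percentile in the lines, against 748 and 951 times in the splenocytes. Of the 8 genes 6 fell and 0 rose, with a median difference of −1.67 on the log2 scale. Over all tested genes 32.7% fell and 30.8% rose. Of 9 T-cell markers, both lines showed 7 above background and both splenocyte samples showed 9, and Thy1 was dim in both lines. The summed T-cell signal was 13.6 and 15.3 in the lines, against 9.10 and 6.85 in the splenocytes, and of the 9 genes 4 fell and 3 rose, with a median difference of 0.09 on the log2 scale. The corresponding sums of 9 markers of macrophages, monocytes and neutrophils were 35.5 and 35.9 in the lines, against 16.4 and 10.8 in the splenocytes, with Lyz, Lyzs and S100a8 dim in both lines. Of these 9 genes 7 fell and 1 rose, with a median difference of −3.62. The one that rose was Emr1, at 5.14 and 5.16 on the scaled log2 scale in the lines, against 1.09 and 0.76 in the splenocytes. The part of other cell types in the results below was not tested, and in whole samples fewer cells of a type cannot be told apart from less RNA per cell. The Drd3 probe stood above background in the lines alone, at least 1.68-fold higher there than in the splenocytes, where it was dim (adjusted p = 0.064, not called).

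Structural ribosomal protein mRNAs tended to be lower in the lymphoma lines than in the splenocytes on the scale of the 75th percentile, a direction that was reversed when the arrays were scaled on their spike-in controls. Of the 78 structural members, 24 fell, 0 rose and 54 did not pass the test, at a limma adjusted p under 0.05. The background in the same comparison was high: 32.7% of all tested genes fell, 30.8% rose and 63.5% were called in either direction, so the share that fell among the structural members is close to that of all genes. The median difference of the structural members was −0.69 log2 units, against −0.05 for all tested genes. In 65 of the 78 both lines lay below both splenocyte samples, an order found in 43.8% of all tested genes, and in 3 both lines lay above both splenocyte samples, an order found in 41.3%. The groups overlapped for the other 10.

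Over all 84 members the counts were 25 that fell, 4 that rose and 55 that did not pass the test, against 32.7% and 30.8% of all tested genes that fell and rose. The median difference was −0.67. The median scaled log2 signal of the 84 was 7.12 in line 1 and 6.87 in line 2, against 7.47 in splenocytes 1 and 8.18 in splenocytes 2. In 67 of the 84 both lines lay below both splenocyte samples, an order found in 43.8% of all tested genes. Splenocytes 2 read above splenocytes 1 in 74. At the median the splenocyte samples stood farther apart than the lines. The 4 that rose were the paralogs Rpl3l and Rps27l and the 2 members that match by name alone, and none of them is structural. The plot of signal by array shows this order for 34 members described individually below, the largest differences among them.

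**Figure D1:**
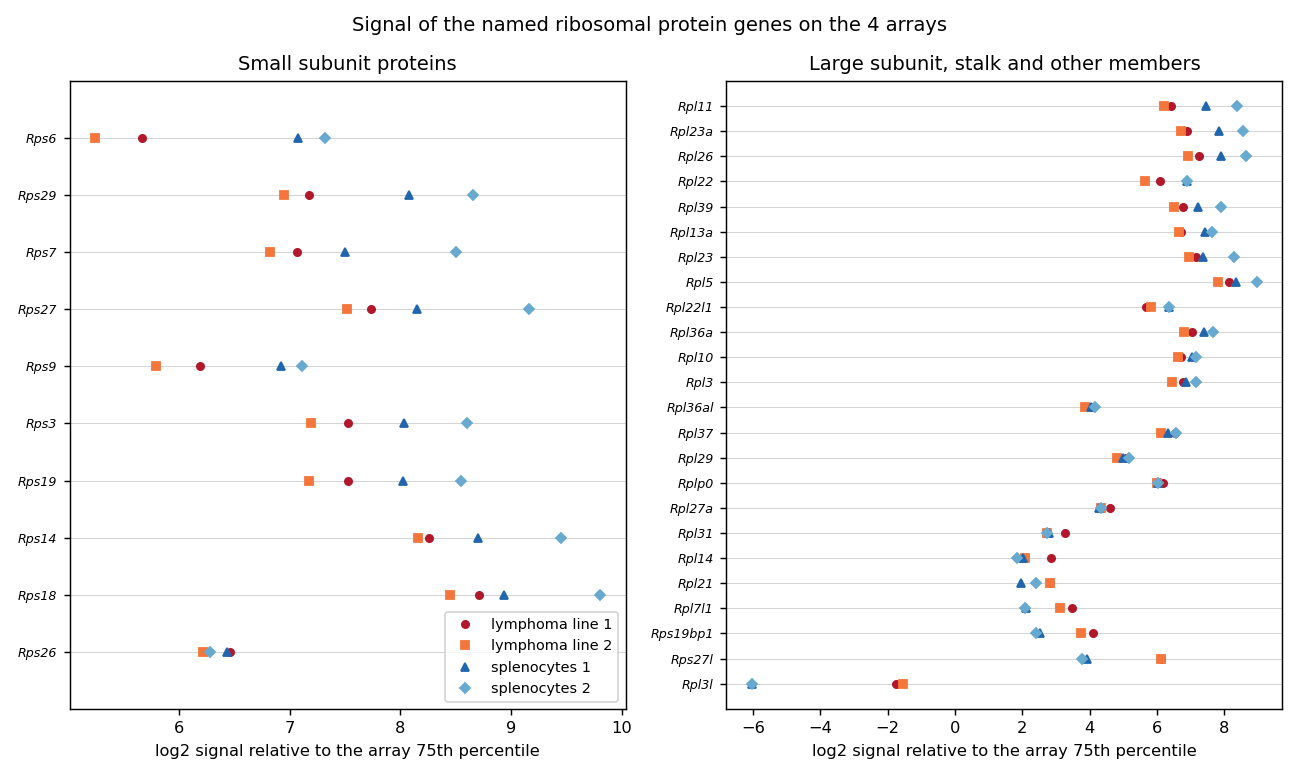
Scaled log2 signal (log2 of the processed signal over the 75th percentile of the array) of 34 members on each of the 4 arrays, 1 row per gene, 1 point per array, ordered by the difference between the lines and the splenocytes. In 22 of 34 rows both line points lie left of both splenocyte points on this scale and in 7 they lie right of them, and in 26 splenocytes 2 lies right of splenocytes 1; under scaling on the spike-in controls the median difference of the members changes sign.

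The brightness of these mRNAs bears on the comparison. The brightest 10% of all tested genes, 1832 genes, held 24.1% that fell and 38.5% that rose, 62.7% called in either direction. Its median difference was 0.20, against −0.69 for the structural members. That set was still dimmer than the structural members, with a median signal of 4.55 against 7.48. Splenocytes 2 minus splenocytes 1 had a median of 0.07 in that set and 0.51 in the structural members. The spike-in controls are RNAs of the viral E1A gene added during labelling, each read by 32 spots, in amounts not given in the sources used here. On the 75th-percentile scale all 7 spike-in probes used for scaling were lower in the lines, by a median of −1.01 and between −1.31 and −0.88. The spike-in probe E1A_r60_1, whose signal lies in the range of the ribosomal protein probes, read 7.81 and 7.52 in the lines, against 8.22 and 8.77 in the splenocytes, a difference of −0.84. As the brightest spike-in probe it was left out of the scaling, and its difference lies outside the range of the 7 that were used. When those 7 spike-in probes were set equal on average, the median difference of the structural members was 0.34, against 0.98 for all tested genes. On that scale 17 of the 84 members rose and 1, Rps6, fell, where 57% of all genes rose and 14.9% fell. This scaling adds 1 constant per array to every gene, so it cannot change the distance of −0.65 between the structural median and the median of all genes.

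The splenocyte arrays also differed from each other at high signal. Splenocytes 2 read above splenocytes 1 in 72 of the 78 structural members, by a median of 0.51 and between −0.18 and 1.13. The spike-in probes E1A_r60_1 and E1A_r60_n9 showed differences of the same sign between these arrays, 0.55 and 0.48, while those of the dimmer spike-in probe E1A_r60_n11 and of the 4 dimmer ones down to E1A_r60_a135 lay between −0.04 and 0.20. Both lines lay below splenocytes 1 alone in 65 structural members and below splenocytes 2 alone in 72. Without splenocytes 2 the median of all 84 members was −0.36 and 5 members fell, where 23.7% of all tested genes fell. Without splenocytes 1 the median was −0.93 and 41 fell, where 25.2% of all genes fell. Without line 2, 7 members and 31.5% of all genes fell.

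The structural members split by signal at the mean of E1A_r60_n11, 5.53 log2 units above the 75th percentile. The 69 brighter ones had a median difference of −0.72 and 22 of them fell. The 358 genes above the same cut that are no members had a median of −0.08, with 88 that fell and 97 that rose. These sets share only the lower cut and are not matched for signal. Median signal was 7.65 for the 69 and 6.30 for the 358. Splenocytes 2 minus splenocytes 1 had a median of 0.58 for the 69 and 0.20 for the 358. The 9 structural members no brighter than that probe had a median of −0.12, 2 of them fell and 4 had a positive difference. The part of the high-signal offset between the splenocyte arrays in these differences was not tested.

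**Figure D2:**
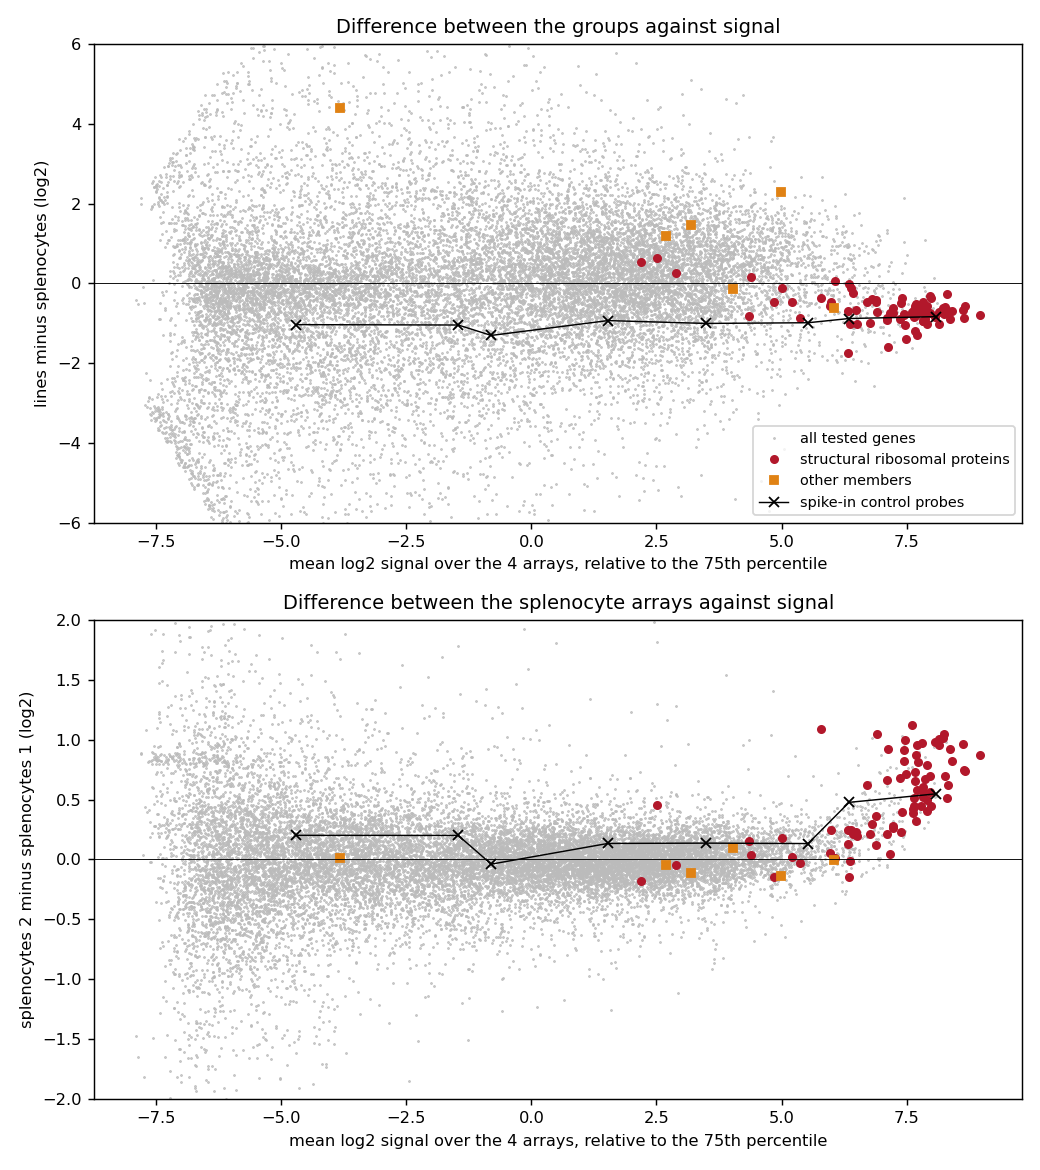
Difference between the groups (top, lines minus splenocytes) and between the splenocyte arrays (bottom, splenocytes 2 minus splenocytes 1), in log2 units, against the mean scaled log2 signal of each gene; red points are the 78 structural members, orange squares the 6 other members, grey dots all tested genes and black crosses the spike-in probes well above background on all arrays. Structural members cluster at the bright end near the spike-in controls in the top panel and mostly above 0 in the bottom panel; the axes are limited, so that some grey dots lie outside them, and the sign of the members' median in the top panel turns when the spike-in controls are set to 0.

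Line 1 read above line 2 in all 78 structural members, by a small amount: the median of line 2 minus line 1 was −0.27, with a range from −0.77 to −0.02. The spike-in probe E1A_r60_1 gave −0.29 for the same pair, and 1450 of the brightest 1832 genes read higher in line 1 than in line 2. With 1 array per line this difference has no test. The largest of these gaps belonged to Rpl14, a protein of the large subunit, at 2.85 in line 1 and 2.08 in line 2.

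Proteins of the small subunit decode the mRNA. On the 75th-percentile scale every one of the 32 had a negative difference, with a median of −0.79, whereas scaling on the spike-in controls gave a median of 0.24. Among them 12 fell, 0 rose and 20 did not pass the test, where 32.7% of all tested genes fell and 30.8% rose. In 30 both lines lay below both splenocyte samples, an order found in 43.8% of all tested genes. The groups overlapped only for Rps25 and Rps26.

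Rps6, the subunit protein that S6 kinases phosphorylate after growth signals, showed the largest decrease of any structural member. Its scaled log2 signal was 5.67 in line 1 and 5.24 in line 2, against 7.07 in splenocytes 1 and 7.32 in splenocytes 2. The gap between the groups was wider than the gap within either, and the difference was −1.74 ± 0.22 (SE, n = 2 per group), 3.35-fold lower in the lines (adjusted p = 0.0033). Rps6 passed the test under all 18 alternatives tried, with a difference between −4.02 for the mean over its probes and −0.71 on the spike-in scale. Its probe lies on the minus strand of chromosome 4 at 86327213 to 86327404 of the mm8 build, the build of the array annotation.

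Rps29, a small zinc-binding protein of the head of the subunit, read 7.17 and 6.95 in the lines, against 8.07 and 8.65 in the splenocytes. The difference of −1.30 ± 0.25 passed the test (adjusted p = 0.012). Rps9, a protein involved in decoding accuracy, read 6.19 and 5.79 in the lines, against 6.92 and 7.11 in the splenocytes, a difference of −1.03 ± 0.20 (adjusted p = 0.012). For both genes the groups were clear of each other. Rps7, linked to p53 control through Mdm2, read 7.07 and 6.82 in the lines, against 7.50 and 8.50 in the splenocytes. Rps27, another zinc-binding protein, read 7.74 and 7.52 in the lines, against 8.15 and 9.16 in the splenocytes. Their differences, −1.05 and −1.03, were as large as that of Rps9, but the splenocyte samples lay 1 log2 unit apart and neither passed the test (adjusted p = 0.067 and 0.071).

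Several small subunit proteins are known for disease or for work outside the ribosome. Rps19, the gene most often mutated in Diamond-Blackfan anaemia of humans, read 7.53 and 7.17 in the lines, against 8.03 and 8.55 in the splenocytes. It fell by 0.94 ± 0.25 on the log2 scale (adjusted p = 0.032), but 2 of its 3 probes were tested, and the other, dimmer one gave 3.77 and 3.40 in the lines, against 3.20 and 3.42 in the splenocytes, a difference of 0.28 that did not pass the test. Rps3, which also has a role in DNA repair and as a partner of NF-κB, read 7.52 and 7.20 in the lines, against 8.03 and 8.60 in the splenocytes, and fell by 0.96 ± 0.26 (adjusted p = 0.032). Rps14, whose loss underlies the anaemia of the human 5q- syndrome, read 8.25 and 8.16 in the lines, against 8.70 and 9.45 in the splenocytes, and its difference of −0.86 did not pass the test (adjusted p = 0.057). Rps19 and Rps3 kept their calls under 8 and 9 of the 18 alternatives, and on the spike-in scale their differences were 0.093 and 0.073.

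Rps13, Rps15, Rps21, Rps15a and Rps10 fell too, with differences between −0.89 for Rps13 and −0.69 for Rps10. At the other end, Rps26, which contacts the mRNA upstream of the start codon, read 6.46 and 6.22 in the lines, against 6.43 and 6.29 in the splenocytes. Its difference of −0.02 ± 0.17 was far inside the spread between samples (adjusted p = 0.93). Rps18, the member with the highest mean signal, had 8.71 and 8.45 in the lines, against 8.93 and 9.80 in the splenocytes, and its difference of −0.79 did not pass the test (adjusted p = 0.10).

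The core of the large subunit forms the peptide bond and the exit tunnel. Of its 43 proteins 12 fell, 0 rose and 31 did not pass the test, where 32.7% of all tested genes fell and 30.8% rose. The median difference was −0.57 on the 75th-percentile scale but 0.46 when the arrays were scaled on the spike-in controls. Both lines lay below both splenocyte samples in 34 of the 43 and above them in 3, Rpl14, Rpl21 and Rpl27a. These orders were found in 43.8% and 41.3% of all tested genes.

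Rpl11 had the largest decrease. It forms the 5S particle with Rpl5, and when ribosome assembly stalls this particle binds Mdm2 and stabilises p53. Rpl11 read 6.43 and 6.22 in the lines, against 7.45 and 8.38 in the splenocytes, a difference of −1.59 ± 0.35 (SE, n = 2 per group) or 3.01-fold lower (adjusted p = 0.017). The groups did not overlap, and the call was lost without line 1 (adjusted p = 0.058), without line 2 (adjusted p = 0.073) and on the spike-in scale, where the difference was −0.56 (adjusted p = 0.15). Rpl5 read 8.15 and 7.81 in the lines, against 8.36 and 8.98 in the splenocytes, and its difference of −0.69 ± 0.28 did not pass the test (adjusted p = 0.089). Rpl23, which also binds Mdm2, read 7.17 and 6.96 in the lines, against 7.37 and 8.28 in the splenocytes, and did not pass either (difference −0.76, adjusted p = 0.12).

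Rpl23a and Rpl26 both sit at the mouth of the exit tunnel. Rpl23a read 6.90 and 6.71 in the lines, against 7.83 and 8.55 in the splenocytes, a difference of −1.39 ± 0.29 (adjusted p = 0.014). Rpl26 read 7.25 and 6.91 in the lines, against 7.91 and 8.64 in the splenocytes, a difference of −1.19 ± 0.31 (adjusted p = 0.027). Their calls held under 16 and 12 of the 18 alternatives. Rpl13a, known in humans as a brake on the translation of inflammatory mRNAs after interferon-γ, read 6.73 and 6.64 in the lines, against 7.44 and 7.65 in the splenocytes. Its replicates lay close together and it fell by 0.86 ± 0.16 (adjusted p = 0.0098). Its call held under 15 of the 18 alternatives and was lost when centred on the array median (adjusted p = 0.099), without splenocytes 2 (adjusted p = 0.067) and on the spike-in scale, where the difference was 0.17.

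Rpl36, Rpl10a, Rpl28 and Rpl15 fell too, to 0.499 to 0.633 times their splenocyte signal. Rpl21 had the highest difference of the core proteins. It read 2.84 and 2.82 in the lines, against 1.96 and 2.41 in the splenocytes, 0.64 ± 0.21 higher without passing the test (adjusted p = 0.0504). It passed under 8 of 18 alternatives, among them the mean over its probes, since its other probe was 1.51 log2 units higher in the lines. Rpl14 read 2.85 and 2.08 in the lines, against 2.02 and 1.84 in the splenocytes (difference 0.54, adjusted p = 0.19). Rpl31 read 3.26 and 2.75 in the lines, against 2.78 and 2.74 in the splenocytes (difference 0.25, adjusted p = 0.37).

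Rpl27a read 4.59 and 4.34 in the lines, against 4.30 and 4.34 in the splenocytes, a difference of 0.15 that turned to −0.68 when its probes were averaged and to −0.080 under quantile normalization. Rpl29 and Rpl37 differed by −0.12 and −0.13, and the groups overlapped for both. Rpl29, a heparin-binding protein dispensable for life in mice, read 5.10 and 4.82 in the lines, against 4.99 and 5.17 in the splenocytes. Rpl37 read 6.52 and 6.13 in the lines, against 6.33 and 6.58 in the splenocytes.

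The stalk proteins recruit elongation factors, and 0 of the 3 passed the test, where 63.5% of all tested genes were called in either direction. Rplp0, the base of the stalk and a common reference gene in PCR, read 6.18 and 6.00 in the lines, against 6.03 and 6.04 in the splenocytes, a difference of 0.05 ± 0.15 (adjusted p = 0.78). Rplp1 read 7.93 and 7.66 in the lines, against 8.03 and 8.99 in the splenocytes, and Rplp2 read 8.06 and 7.80 in the lines, against 8.03 and 9.04 in the splenocytes. Their differences of −0.71 and −0.61 rest on splenocytes 2, which stood about 1 log2 unit above splenocytes 1 in both.

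The paralogs did not move together. Rps27l, a paralog of Rps27 that is known as a p53 target, rose to 6.12 in line 1 and 6.12 in line 2, against 3.91 and 3.78 in the splenocytes. The difference was 2.28 ± 0.14 (SE, n = 2 per group), 4.85-fold higher in the lines (adjusted p = 6.7e-04). Its structural relative Rps27 gave −1.03, not called, as described above, so the pair differed in sign, which was not tested as such and which the spike-in scale removes, with Rps27 at 0.0012 there. Rps27l passed the test under all 18 alternatives, with a difference between 2.15 and 3.31.

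Rpl3l, a paralog of Rpl3 that is known from striated muscle, had the lowest mean signal of the members. It read −1.74 and −1.54 in the lines, against −6.04 and −6.03 in the splenocytes, that is, a processed signal of 335 and 453 in the lines and of 16.4 and 7.87 in the splenocytes. It was well above background on all 4 arrays, and the difference of 4.39 ± 0.15 (adjusted p = 2.0e-04) corresponds to 21.0-fold. Under the alternatives the difference lay between 2.10 and 5.42, and it passed in each. Rpl3, its structural relative, had 6.77 and 6.44 in the lines, against 6.85 and 7.15 in the splenocytes, and its difference of −0.40 did not pass the test (adjusted p = 0.15).

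Rpl22 and Rpl22l1 are paralogs that restrain each other in mouse T cells, where Rpl22 binds the mRNA of its relative. Rpl22 read 6.08 and 5.65 in the lines, against 6.89 and 6.88 in the splenocytes, and fell by 1.02 ± 0.20 (adjusted p = 0.012). Rpl22l1 read 5.67 and 5.82 in the lines, against 6.37 and 6.37 in the splenocytes, and fell by 0.63 ± 0.14 (adjusted p = 0.020). Both were thus lower in both lines on this scale, but at 0.0073 and 0.40 under the spike-in scale, where neither passed, and their calls held under 14 and 11 of the 18 alternatives. Rpl22l1, Rps27l and Rpl3l were the members in which line 2 read above line 1.

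Rpl36al read 4.03 and 3.87 in the lines, against 4.05 and 4.15 in the splenocytes, and did not pass the test (difference −0.15, adjusted p = 0.43). Its relative Rpl36a, encoded on the X chromosome, read 7.04 and 6.80 in the lines, against 7.39 and 7.67 in the splenocytes, and fell by 0.61 ± 0.18 (adjusted p = 0.042). Rpl39, a small protein in the wall of the exit tunnel, read 6.78 and 6.50 in the lines, against 7.23 and 7.89 in the splenocytes, and fell by 0.92 ± 0.28 (adjusted p = 0.044). Rpl10, which joins the large subunit late in its assembly, read 6.73 and 6.63 in the lines, against 7.03 and 7.16 in the splenocytes, and its difference of −0.41 did not pass (adjusted p = 0.064). The annotation places this brightest Rpl10 probe on chromosome 13 and the other one on X, where the difference was −0.27. The calls of Rpl36a and Rpl39 held under 8 and 10 of the 18 alternatives. Near-identical processed copies of ribosomal protein genes are common in the mouse genome, and a probe may read some of them with the gene.

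Both members that are not ribosomal proteins rose. Rps19bp1 read 4.09 and 3.75 in the lines, against 2.53 and 2.42 in the splenocytes, a difference of 1.45 ± 0.18 (adjusted p = 0.0034). Rpl7l1 read 3.48 and 3.11 in the lines, against 2.13 and 2.08 in the splenocytes, a difference of 1.20 ± 0.19 (adjusted p = 0.0062). Each has another probe, and those differences were 1.65 and 1.90, so both probes of both genes were higher in both lines. The 2 genes passed under all 18 alternatives.

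Several probes per gene allow a check of each value. Of 137 member probes tested, 84 were the brightest of their gene and 53 were others, from 41 genes. Among the 53, 22 fell, 8 rose and 23 did not pass the test, where 32.5% of all 27414 tested probes fell, 32.3% rose and 64.8% were called in either direction. For 10 of the 53 the sign was opposite to that of the brightest probe, and in 0 genes did called probes go in opposite directions. The 39 other probes annotated with a RefSeq accession had a median difference of −0.41, with 13 that fell and 6 that rose. The 14 annotated with another accession, mostly single cDNA clones, had a median of −1.33, with 9 that fell and 2 that rose. That split was made after the values were seen and is a description only.

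Some probes of 1 gene gave very different values. The Rps6 probe annotated with a cDNA clone lies 18753 bases from the brightest one on the same strand. It was not well above background in either line and read −2.73 and −2.83 in the splenocytes, so that it was at least 58.3-fold lower in the lines (adjusted p = 1.2e-04). The other Rpl11 probe lies 59 bases from the brightest one and read −1.17 and −1.12 in the lines, against 2.42 and 2.59 in the splenocytes, a difference of −3.65 where the brightest probe gave −1.59. The other Rps13 probe lies 74 bases away and gave −3.02 where the brightest gave −0.89. In each of these 3 genes both probes fell, and the sizes differed.

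Higher values at other probes were found too. Rps4x gave 1.83 at a probe with no position in the annotation, where its brightest probe gave −0.81. Rpsa, the laminin receptor precursor, gave 1.35 at a probe 3378 bases from the brightest one, which gave −0.48. Rpl37, Rps24 and Rps25 gave 1.19, 1.03 and 0.96 at other probes, and each of these 5 probes passed the test although the brightest probe of the gene did not. What these dim probes read, be it another transcript form, an unspliced RNA or a processed copy, was not tested.

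**Figure D3:**
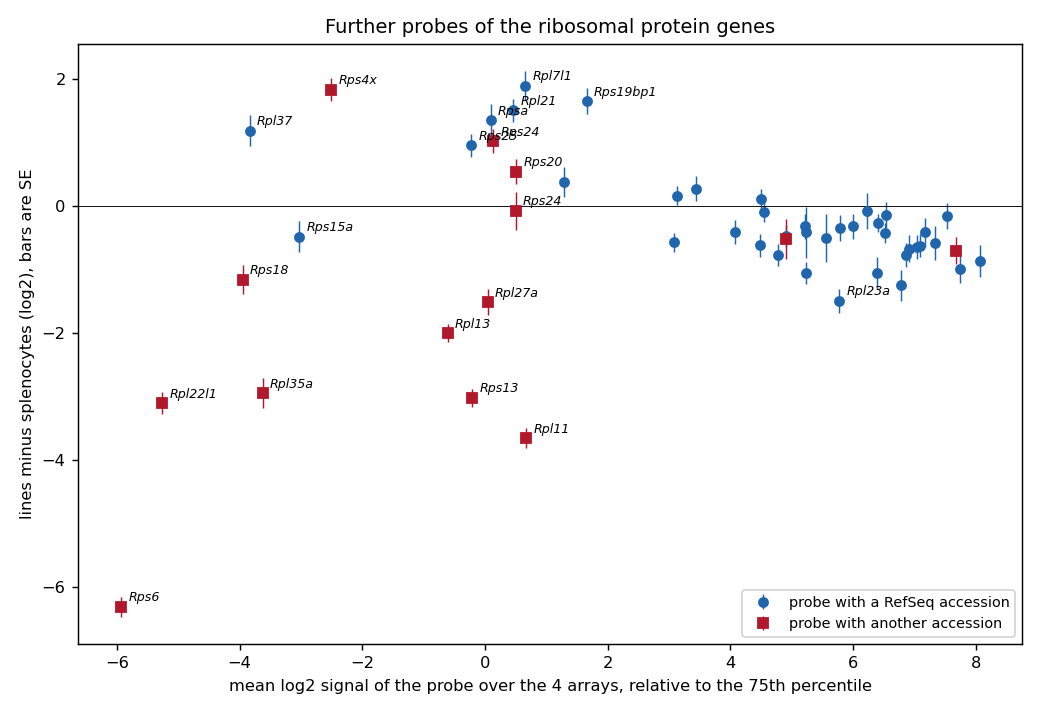
Difference between the lines and the splenocytes (log2, bars are SE) against the mean scaled log2 signal of the 53 probes that are not the brightest of their gene; blue circles carry a RefSeq accession and red squares another accession, and probes that are dim or far from 0 are named. The probes with a signal above 2 lie between 0.28 and −1.49, while the dim ones scatter between 1.90 and −6.30; the vertical position of all points would move up by 1.03 under scaling on the spike-in controls.

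Gnb2l1, now called Rack1, is a scaffold protein of the small subunit whose name lies outside the naming rule. It read 7.41 and 7.18 in the lines, against 7.75 and 8.65 in the splenocytes. Its difference of −0.91 did not pass the test (adjusted p = 0.079).

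Other mRNAs known for a TOP tract had a median difference of −0.11 over 18 genes. Among them 3 fell, 1 rose and 14 did not pass the test, where 32.7% of all tested genes fell and 30.8% rose. Vim, an intermediate filament protein, fell by 1.73, Tpt1, a growth-related protein, by 1.13, and Eif4b, a helper of translation initiation, by 0.92, all on the log2 scale. Cct4, a subunit of the cytosolic chaperonin, rose by 1.60. The elongation factors Eef1a1 and Eef2 had differences of −0.57 and −0.07 that did not pass. These genes and the structural members share the control samples, so that their medians of −0.11 and −0.69 are set side by side only.

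Genes for making ribosomes were mostly higher in the lines. Of 50 genes of ribosome biogenesis and RNA polymerase I, 37 rose, 2 fell and 11 did not pass the test, with a median difference of 1.17. The shares over all tested genes were 30.8% that rose and 32.7% that fell. Gar1, a protein of the pseudouridine-forming particles that the file lists as Nola1, read 2.87 and 2.62 in the lines, against −0.39 and −0.49 in the splenocytes, 9.09-fold higher (adjusted p = 4.1e-04). Taf1b, a factor of RNA polymerase I, fell to 0.468 times its splenocyte signal. Of 8 dedicated chaperones that escort single ribosomal proteins, 6 rose and 0 fell, with a median of 0.97. Heatr3, the carrier of Rpl5 in the human and the yeast cell, read −0.54 and −0.57 in the lines, against −2.50 and −2.62 in the splenocytes, a difference of 2.01, and Pdcd2l had the lowest difference of the list, −0.37, which did not pass.

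Mitochondrial ribosomal proteins, which build the separate ribosome of mitochondria, were higher in the lines, with a median difference of 0.91. Of the 75, 61 rose and 2 fell, where 30.8% of all tested genes rose and 32.7% fell. Mrps5 rose by 2.18 and Mrpl24 fell by 0.94 on the log2 scale. The median signal of this list was 2.82 log2 units above the 75th percentile, a range in which the splenocyte arrays differed by a median of −0.01 for these genes, whereas the structural cytosolic members had a median signal of 7.48 and a difference of 0.51 between those arrays. The lists of ribosome assembly and of mitochondrial ribosomal proteins had positive medians under every scaling tried.

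Among 11 tested regulators of ribosomal protein synthesis, 3 rose and 3 fell, where 30.8% of all tested genes rose and 32.7% fell. Eif4ebp1, the translational repressor that mTOR inactivates, read 5.22 and 5.18 in the lines, against 1.81 and 1.97 in the splenocytes, 9.91-fold higher (adjusted p = 3.1e-04). Rps6kb2 and Rps6ka1, kinases that phosphorylate Rps6, rose by 1.24 and 0.53 on the log2 scale. Myc read 2.91 and 2.24 in the lines, against 5.13 and 5.07 in the splenocytes, and fell by 2.52 (adjusted p = 0.0022). Trp53 and Mycl1 fell by 1.05 and 1.01. Larp1, which binds the TOP tract, and Rps6kb1 differed by 0.16 and 0.03 and did not pass.

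**Figure D4:**
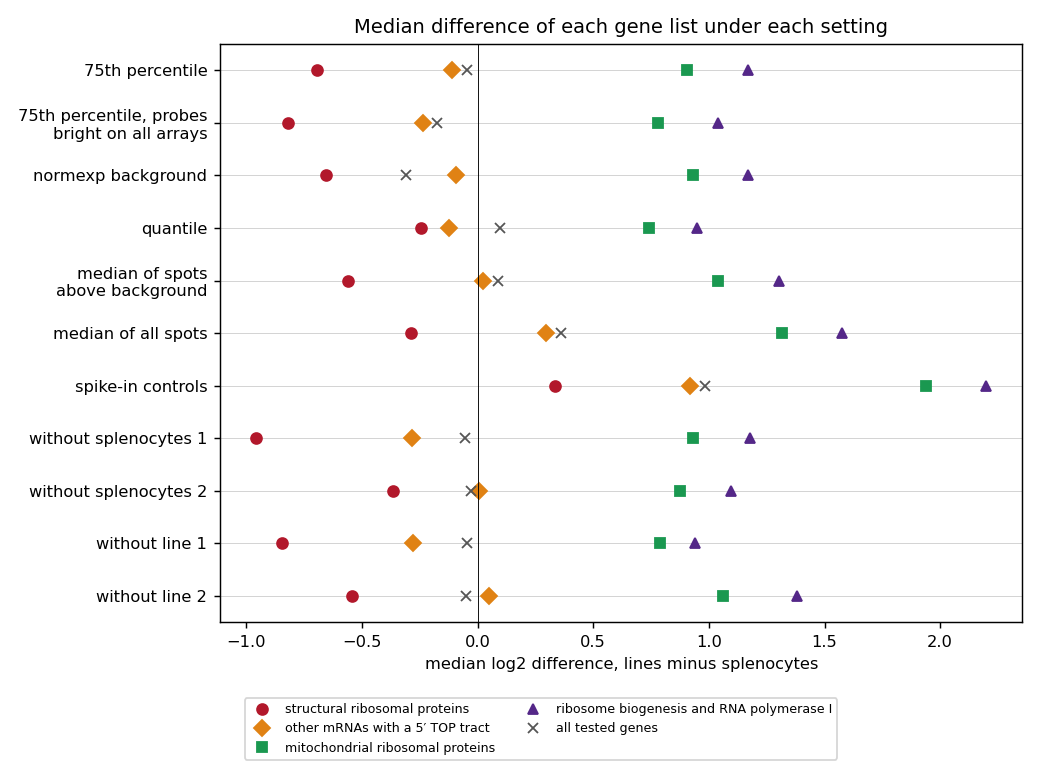
Median log2 difference (lines minus splenocytes) of the 78 structural members, 18 other TOP mRNAs, 75 mitochondrial ribosomal proteins, 50 ribosome biogenesis genes and all tested genes under 11 settings, 1 row per scaling, background correction or left-out array. The structural median is the lowest point in every row, at −0.69 under the 75th percentile and between −0.96 and −0.25 under the other settings except the spike-in scale, where it turns to 0.34.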

How the data were processed

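Total RNA of 2 B-cell lymphoma lines and 2 samples of B220+ splenocytes was labelled with Cy3 and hybridised to 4 single-colour Agilent mouse arrays with 43379 non-control spots each. Per the file headers, images were extracted with Agilent Feature Extraction 9.5.1.1 (9.5 per the submitters' processing notes) with an extended range scan, and probes carry mm8 positions. The deposited processed signal is an intensity per spot, corrected for background by the authors' extraction software, and not normalized between arrays. Flags of well above background, saturation and outliers are deposited beside it. The deposited series matrix holds the same intensity times 1 factor per array (0.961 and 0.820 for the lines, 1 and 2.10 for the splenocytes), as its values show.

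Spots with an outlier flag on any array were left out (153 probes were lost) and spots of a probe averaged. The log2 intensity minus the log2 75th percentile of the array was fitted with limma 3.58.1 in R 4.3.3 (with the data.table package, version 1.17.8). The brightest probe by mean signal stood for a gene, and genes were tested if 2 or more of the 4 arrays read them well above background. The test was two-sided, with Benjamini-Hochberg adjustment over 18313 genes and a threshold of 0.05. Residual degrees of freedom were 2 and prior ones 2.31. A probe dim in a whole group has a fold given as a bound, the mean of the bright group over the higher of the dim probe's own signal and the lowest signal well above background, per array. The number of arrays limits the precision. The fit was tested on simulated data. Promoter windows are from the RefSeq table (GRCm38.p6), and figures were drawn with matplotlib 3.10.9.

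Members and gene lists were chosen with earlier results of these data known. Named genes are the paralogs with their parents, the 8 highest and the 8 lowest differences among structural members, and the brightest and the dimmest member. Members with roles in anaemia or outside the ribosome, and the largest change each way of each related list, were named too. Only 5 structural members had a positive difference, so Rpl37, Rpl29 and Rps26 among the 8 highest were negative. Other names were chosen after their values were seen. Same-numbered samples did not deviate together (r = 0.0095 across genes), and nothing in the labels pairs them. Alternatives were other scalings, background correction, filters, probe rules, an intensity trend, the replicate block and each array left out. Probe and protein sequences were not used here. Some members are counted here but not reported by name.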

Additional observations from a re-analysis of the deposited data

How the results depend on the processing

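The distance of the members' median from that of all genes was −0.62 as reported. Of the 18 alternatives, 7 leave it as it is by construction, or nearly so (both centrings, the percentile of bright probes, the spike-in scale, the intensity trend, the replicate block and the deposited matrix, which holds the same values), and over the other 11 it lay between −0.88 and −0.28. The members' own sign depends on the scale. Scalings moved the median of all genes by 0.14 (quantile), 0.41 (array median), −0.13 (percentile of bright probes), −0.26 (normexp) and 1.03 (spike-in controls, chosen after seeing the data). As reported 25 members fell. The count, with the share of all genes that fell, was 4 (23.9%) when centred on the array median, 13 (29.3%) when centred on the median of spots above background (also chosen after seeing the data), 10 (21.3%) without a filter on dim probes, 14 (30.5%) with the replicate block, 1 (14.9%) on the spike-in scale, and 5 to 41 (23.7% to 31.5%) when 1 array was left out. As reported 4 members rose. The count was 17 on the spike-in scale (57% of all genes rose there) and otherwise 4 or 5. The members' median of −0.67 was −0.26 centred on the array median, −0.24 under quantile normalization, 0.36 on the spike-in scale and −0.93 to −0.36 with 1 array left out. The small subunit median of −0.79 was −0.38, −0.29, 0.24 and −1.17 to −0.43 under those settings, and the large subunit median of −0.57 was −0.16 centred on the array median, 0.46 on the spike-in scale and −0.82 to −0.32 with 1 array left out. Single members reversed as follows. On the spike-in scale the differences were 0.61 for Rpl10, 0.17 for Rpl13a, 0.0073 for Rpl22, 0.40 for Rpl22l1, 0.27 for Rpl23, 0.91 for Rpl29, 0.63 for Rpl3, 0.42 for Rpl36a, 0.88 for Rpl36al, 0.90 for Rpl37, 0.11 for Rpl39, 0.34 for Rpl5, 0.17 for Rps14, 0.24 for Rps18, 0.093 for Rps19, 1.01 for Rps26, 0.0012 for Rps27, 0.073 for Rps3 and 0.0039 for Rps9. Centred on the array median they were 0.29 for Rpl29, 0.0083 for Rpl3, 0.26 for Rpl36al, 0.28 for Rpl37 and 0.39 for Rps26, and on the median of spots above background 0.014 for Rpl29, 0.0039 for Rpl37 and 0.11 for Rps26. With the mean over probes they were −0.68 for Rpl27a, 0.018 for Rpl29 and 0.53 for Rpl37. With normexp Rps26 was 0.0068, and with the percentile of bright probes Rplp0 was −0.076. With quantile normalization Rpl27a was −0.080, Rpl37 0.027 and Rps26 0.10. Rps18 gave the brightest spot on each of the 4 arrays. Quantile normalization therefore sets it equal on all of them, and its difference of 0 there is fixed by construction and is no reversal. With 1 array left out, Rpl31 ranged from −0.0087 (without line 1) to 0.50, Rplp0 from −0.037 (without line 1) to 0.14, Rpl29 from −0.26 to 0.019 (without line 2), Rpl37 from −0.32 to 0.067 (without line 2) and Rps26 from −0.14 to 0.10 (without line 2). Apart from that of Rps18 under quantile normalization, the cause of these changes was not tested. The replicate block cannot change a group difference in this design, so it bears only on the number of calls, and the pairing check gave r = 0.0095. A slide or scan block could not be fitted because all arrays share 1 slide and 1 scan. No lower bound on a fold is needed for a member, since all 84 were well above background on all 4 arrays.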
